A study of Mus musculus with 12 samples.

Results

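The interaction of myelin with laminin was read here gene by gene, as the change made by adding myelin to a laminin coat minus the change made by adding myelin to a poly-D-lysine (PDL) coat. All 12 libraries of the series enter this contrast, and 15737 of 21030 genes had enough counts to be tested. Spinal cord cells of wild-type C57BL/6 embryos at embryonic day 12 were plated on 4 coats and lysed after 48 hours. Every well carried PDL at 20 μg/ml, a synthetic polymer to which cells attach. On it lay laminin at 1 μg/ml with myelin membranes at 10 μg/ml (Laminin + Myelin), laminin only (Laminin), myelin membranes only (Myelin), or nothing more (PDL). There were 3 libraries on each coat, numbered 1 to 3 by the labels, which call them biological replicates without naming litters or days. The main test holds the replicate number as a block, which removes differences shared by a number. Its p-values therefore measure only the spread between these cultures that remains. Laminin replicate 1 stood apart in earlier results of these data, so the contrast was repeated without it.

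Laminin is a basement membrane protein that binds integrins and dystroglycan on the cell surface and on which neurites extend readily. Myelin is the lipid-rich sheath of axons in the central nervous system, and its membranes carry proteins such as Nogo-A, MAG and OMgp that are known to act on growth cones through receptors on the neuron. When a pair of agents act independently, their changes add up on the log2 scale and the interaction is 0. When the second agent adds little to the first, a gene that each lowers alone has an interaction above 0, and a gene that each raises alone has an interaction below 0.

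No gene passed the threshold in the interaction, so the genes with the smallest p-values are described by their values. A fixed rule took 6 with a positive and 6 with a negative interaction among genes with a mean of at least 1 CPM (counts scaled to library size, the unit of all levels here) and the same sign in all 3 replicate numbers. For 5 of these 12 genes the promoter was read from RefSeq sequences for build GRCm38.p6. Each runs from 250 bases before to 50 bases after its gene's start in RefSeq. They are shown because their genes lead the contrast: Clk4 had a positive interaction, and Lyz2, Col8a1, Ccdc184 and Slc1a6 a negative one. The Clk4 promoter lies at chr11:51262864-51263163, plus strand, and that of Lyz2 at chr10:117282223-117282522, minus strand. The Col8a1 promoter lies at chr16:57754688-57754987, minus strand, that of Ccdc184 at chr15:98167556-98167855, plus strand, and that of Slc1a6 at chr10:78780246-78780545, plus strand. By GENCODE M21, the source of gene coordinates here, the Clk4 and Ccdc184 promoters lie wholly inside their genes. Each of the 5 promoters is written 5′ to 3′ on its gene's strand, with motif matches in capitals.
Clk4: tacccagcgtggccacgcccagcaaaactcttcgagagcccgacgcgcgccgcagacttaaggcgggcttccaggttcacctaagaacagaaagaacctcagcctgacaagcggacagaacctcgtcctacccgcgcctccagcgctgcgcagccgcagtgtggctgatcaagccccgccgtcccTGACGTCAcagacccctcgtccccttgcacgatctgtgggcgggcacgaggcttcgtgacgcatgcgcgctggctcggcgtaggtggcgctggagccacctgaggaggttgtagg
Lyz2: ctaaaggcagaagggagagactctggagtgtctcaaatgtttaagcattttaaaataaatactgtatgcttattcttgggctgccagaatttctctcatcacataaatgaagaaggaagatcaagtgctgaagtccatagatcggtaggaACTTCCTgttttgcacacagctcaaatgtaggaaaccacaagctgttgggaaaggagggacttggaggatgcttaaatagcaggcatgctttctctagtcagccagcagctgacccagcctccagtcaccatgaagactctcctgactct
Col8a1: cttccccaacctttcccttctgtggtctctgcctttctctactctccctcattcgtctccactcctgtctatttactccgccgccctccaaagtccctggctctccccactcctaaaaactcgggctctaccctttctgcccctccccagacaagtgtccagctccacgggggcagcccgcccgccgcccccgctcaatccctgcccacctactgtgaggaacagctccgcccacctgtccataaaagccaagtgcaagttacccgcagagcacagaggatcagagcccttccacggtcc
Ccdc184: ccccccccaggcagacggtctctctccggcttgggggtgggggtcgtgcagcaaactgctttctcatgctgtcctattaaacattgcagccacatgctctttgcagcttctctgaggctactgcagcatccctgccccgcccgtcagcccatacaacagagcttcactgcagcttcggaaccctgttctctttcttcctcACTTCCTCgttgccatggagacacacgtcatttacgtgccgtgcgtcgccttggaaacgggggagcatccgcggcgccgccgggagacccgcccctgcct
Slc1a6: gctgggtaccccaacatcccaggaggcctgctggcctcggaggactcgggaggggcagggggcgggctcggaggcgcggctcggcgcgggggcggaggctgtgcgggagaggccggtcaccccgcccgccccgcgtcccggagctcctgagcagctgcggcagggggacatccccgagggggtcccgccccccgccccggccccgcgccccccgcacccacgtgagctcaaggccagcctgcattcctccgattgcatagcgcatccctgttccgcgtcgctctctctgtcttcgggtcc

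The capitals mark 6 motifs searched on both strands, which were chosen after the values and some promoters had been seen. They were the cyclic AMP response element TGACGTCA, the PU.1 site GAGGAAGT, its shorter core AGGAAGT (which every PU.1 site contains), a palindrome of the Kaiso type, the CCAAT box CCAAT, and the CArG box. PU.1 is a transcription factor of macrophages and microglia. The Clk4 promoter held TGACGTCA, a motif found in 1.79% of all 32851 promoters and in 2.86% of the 14797 promoters of genes tested. It was in 3 of 48 promoters of genes for splicing regulators. Clk4 itself encodes a kinase of SR splicing factors, the kind of gene counted there, so these 3 lend its match no separate support. The Lyz2 promoter held the core AGGAAGT on its other strand. That core was in 9.35% of all promoters, 8.4% of those of genes tested and 9 of 18 promoters of microglial genes. Lyz2 belongs to that microglial list itself, so its own promoter is among the 9. The Ccdc184 promoter held the full PU.1 site on its other strand, found in 3.20% of all promoters, 2.80% of those of genes tested and 3 of the 18. The palindrome was in 0.466% of all promoters, the CCAAT box in 37.4% and the CArG box in 1.63%. A match describes these letters and is no evidence that a factor binds there.

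Markers of young spinal neurons were present, with means over all libraries of 1243 CPM for the tubulin gene Tubb3, 3715 CPM for Dcx and 661 CPM for Hoxb8, a gene of trunk levels of the cord. Each library held between 36061511 and 45024091 counts assigned to genes. The share of all counts that fell outside annotated genes was 11%, 11.9% and 11.7% on Laminin + Myelin, 8.46%, 13.2% and 13.7% on Laminin, 10.8%, 10.8% and 12.4% on Myelin, and 17.4%, 19.4% and 17.5% on PDL. All 3 PDL libraries lay above the other 9, and Laminin replicate 1 had the lowest share. The interaction of this share was 9.21, 7.3 and 3.14 percentage points within replicate numbers 1, 2 and 3 (mean 6.55 ± 3.10, SD, n = 3). An exact two-sided sign-flip permutation gave p = 0.25, the smallest that 3 values allow. The share thus moved with the same contrast as the genes below, and its part in them was not tested beyond a fit that holds it as a covariate. That covariate follows the PDL coat closely, and coat and share cannot be told apart in these libraries.

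**Figure D1:**
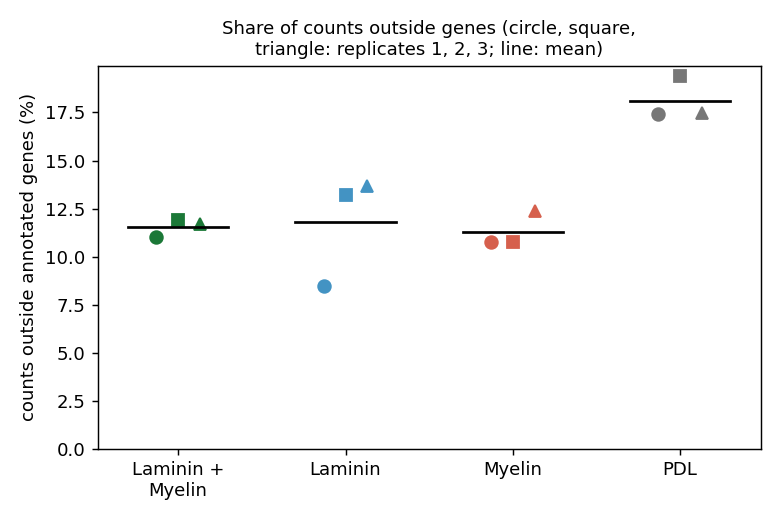
Share of all counts outside annotated genes (y axis, percent) in the 3 libraries of each coat (x axis), with the mean as a line. The PDL libraries sit between 17.4% and 19.4%, above all others, and Laminin replicate 1 sits lowest at 8.46%.

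No gene passed the threshold for a different myelin effect on the laminin and the PDL coat (0 of 15737, or 0%, edgeR's quasi-likelihood test with the replicate number as a block, adjusted p under 0.05). The smallest adjusted p was 0.167, and 2603 genes (16.5%) had an unadjusted p under 0.05, of which 1505 (9.56%) had a positive and 1098 (6.98%) a negative interaction. Over all genes tested the median interaction was -0.01 log2, with the middle 50% between -0.18 and 0.20 and a median standard error (SE) of 0.15. The tools differed in this count, since limma-voom called 0 genes (2532 at an unadjusted p under 0.05) and DESeq2 called 242, of which 221 were positive and 21 negative (2498 at an unadjusted p under 0.05). Without the replicate block edgeR called 0 genes, with 1042 at an unadjusted p under 0.05. On the CPM scale, where coats would add rather than multiply, limma also called 0 genes, with 2176 at an unadjusted p under 0.05.

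The genes of the positive set that are described here were higher on PDL, by mean, than on the 3 coats with laminin, myelin or both. PDL levels are part of the interaction by which the positive and the negative set were picked. Where PDL stands in these genes is therefore a description and no separate support. Clk4, at chr11:51261730-51281766, encodes a kinase of SR splicing factors, and its transcript stood at 48.7, 75.3 and 77.9 CPM on Laminin + Myelin, 49.0, 77.6 and 91.0 CPM on Laminin, 45.9, 64.1 and 85.3 CPM on Myelin and 78.0, 109 and 118 CPM on PDL. Here the coats overlapped over all numbers, and within each replicate number PDL was highest. Its interaction was 0.57 ± 0.11 log2 (SE, adjusted p = 0.167), made of -0.09 ± 0.08 for myelin on laminin and -0.67 ± 0.08 for myelin on PDL. The related kinase Clk1, added after its values were seen, had an interaction of 0.59 ± 0.12 (adjusted p = 0.167).

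Another 4 genes of the positive set also had their highest mean on PDL. Zfp182, a zinc finger protein gene at chrX:21028939-21062316, stood at 21.7, 24.8 and 19.5 CPM on Laminin + Myelin, 21.0, 22.2 and 21.4 CPM on Laminin, 19.3, 19.9 and 20.9 CPM on Myelin and 33.8, 34.6 and 31.3 CPM on PDL. PDL lay above all 9 other libraries, and the interaction was 0.75 ± 0.12 log2 (adjusted p = 0.167). Cspp1, which encodes a protein of centrosomes and spindle poles at chr1:10037987-10136768, stood at 27.9, 28.3 and 25.3 CPM on Laminin + Myelin, 24.3, 31.2 and 28.8 CPM on Laminin, 27.8, 24.3 and 28.0 CPM on Myelin and 52.1, 50.9 and 45.3 CPM on PDL. Its groups on PDL and on the other coats did not overlap either, with an interaction of 0.83 ± 0.14 (adjusted p = 0.167). The long noncoding RNA C230004F18Rik (chrX:61116378-61292484) had an interaction of 0.93 ± 0.16 at means of 4.17 ± 0.899 CPM on Laminin + Myelin, 4.66 ± 0.497 on Laminin, 3.78 ± 0.857 on Myelin and 8.10 ± 1.37 on PDL (SD, n = 3 each). Gm2011, annotated as a transcribed pseudogene, averaged 1.40 ± 0.216 CPM on Laminin + Myelin, 1.42 ± 0.138 on Laminin, 0.961 ± 0.152 on Myelin and 2.91 ± 0.426 on PDL, and had an interaction of 1.57 ± 0.29. Its 3 Myelin libraries all lay below the libraries of the other coats. C230004F18Rik and Gm2011 had an adjusted p of 0.167, and reads of the pseudogene may be shared with similar genes.

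Among genes with negative interactions, Lyz2 and C1qa are markers of macrophages and microglia. Lyz2, which encodes lysozyme, stood at 9.24, 25.9 and 38.4 CPM on Laminin + Myelin, 11.3, 21.6 and 32.1 CPM on Laminin, 10.4, 26.7 and 44.8 CPM on Myelin and 4.77, 14.6 and 20.6 CPM on PDL. It differed more between replicate numbers than between coats, and within each number PDL was lowest. Its interaction was -0.94 ± 0.17 log2 (adjusted p = 0.167), and reads may be shared with its near-identical neighbour Lyz1. C1qa, a chain of the complement protein C1q at chr4:136895917-136898803, stood at 2.44, 6.83 and 11.8 CPM on Laminin + Myelin, 2.03, 3.59 and 5.74 CPM on Laminin, 3.04, 8.31 and 11.2 CPM on Myelin and 0.990, 2.15 and 3.36 CPM on PDL. It was lowest on PDL and next on Laminin within each number, and myelin raised it on PDL (1.78 ± 0.16, adjusted p = 0.000223). On laminin the myelin change was 0.80 ± 0.15 (adjusted p = 0.115), which left an interaction of -0.99 ± 0.22 (adjusted p = 0.167). Without Laminin replicate 1 the myelin change on laminin passed the threshold, at 0.95 ± 0.14 (adjusted p = 0.00489). The interaction was then -0.85 ± 0.19 (adjusted p = 0.0644). In bulk RNA, more cells of a type and more RNA per cell cannot be told apart.

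Col8a1, which encodes a short-chain collagen, stood at 3.46, 8.43 and 4.43 CPM on Laminin + Myelin, 6.03, 6.86 and 5.78 CPM on Laminin, 5.21, 8.46 and 4.59 CPM on Myelin and 2.97, 3.13 and 2.39 CPM on PDL. PDL lay below all other libraries, and the interaction was -1.33 ± 0.28 log2 (adjusted p = 0.167). Ccdc184, a coiled-coil protein gene, had an interaction of -0.37 ± 0.09 at means of 65.0 ± 9.06 CPM on Laminin + Myelin, 63.5 ± 8.20 on Laminin, 68.0 ± 7.61 on Myelin and 51.6 ± 8.19 on PDL (SD, n = 3 each). Nptx2, a pentraxin secreted at synapses (chr5:144545902-144557478), stood at 33.8, 26.6 and 36.5 CPM on Laminin + Myelin, 34.3, 29.2 and 38.6 CPM on Laminin, 35.9, 30.6 and 36.1 CPM on Myelin and 27.3, 23.8 and 30.6 CPM on PDL. Its PDL values overlapped those of the other coats, and its interaction was -0.41 ± 0.10 (adjusted p = 0.167). Slc1a6, a neuronal glutamate transporter, stood at 4.30, 2.36 and 1.95 CPM on Laminin + Myelin, 4.99, 3.82 and 2.67 CPM on Laminin, 4.52, 3.07 and 2.20 CPM on Myelin and 2.71, 2.63 and 1.47 CPM on PDL, with an interaction of -0.95 ± 0.22 (adjusted p = 0.167).

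The next genes stood out on single coats in earlier results, and so were chosen with their values known. The imprinted long noncoding RNA Meg3 (chr12:109541001-109571726) stood at 1674, 1179 and 1016 CPM on Laminin + Myelin, 1047, 2080.0 and 1599 CPM on Laminin, 1681, 1011 and 1017 CPM on Myelin and 5042, 4482 and 2513 CPM on PDL. Every PDL library lay above the other 9, and the interaction was 1.33 ± 0.37 log2 (adjusted p = 0.190), or 0.94 ± 0.19 (adjusted p = 0.0644) without Laminin replicate 1. With the share of counts outside genes as a covariate its sign turned, to -0.66. Myelin on laminin changed Meg3 by -0.35 ± 0.26 (adjusted p = 0.788), or by -0.74 ± 0.14 (adjusted p = 0.0369) without Laminin replicate 1. Gria2, a subunit of AMPA-type glutamate receptors, stood at 285, 254 and 216 CPM on Laminin + Myelin, 219.9, 325 and 278 CPM on Laminin, 287, 234 and 214 CPM on Myelin and 546, 548 and 395 CPM on PDL. PDL was again above all other libraries, with an interaction of 0.87 ± 0.20 (adjusted p = 0.167), 0.65 ± 0.09 (adjusted p = 0.0158) without Laminin replicate 1, and -0.14 with the covariate. Myelin on laminin changed Gria2 by -0.14 ± 0.14 (adjusted p = 0.843), or by -0.36 ± 0.07 (adjusted p = 0.0231) without Laminin replicate 1. The smooth muscle actin gene Acta2 stood at 28.8, 51.5 and 35.96 CPM on Laminin + Myelin, 53.6, 42.3 and 37.8 CPM on Laminin, 40.5, 49.8 and 25.1 CPM on Myelin and 24.6, 17.4 and 12.7 CPM on PDL, with PDL below the rest. Its interaction was -1.26 ± 0.31 (adjusted p = 0.169), and that of Tpm2, which encodes a tropomyosin, was -0.88 ± 0.25 (adjusted p = 0.192).

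**Figure D2:**
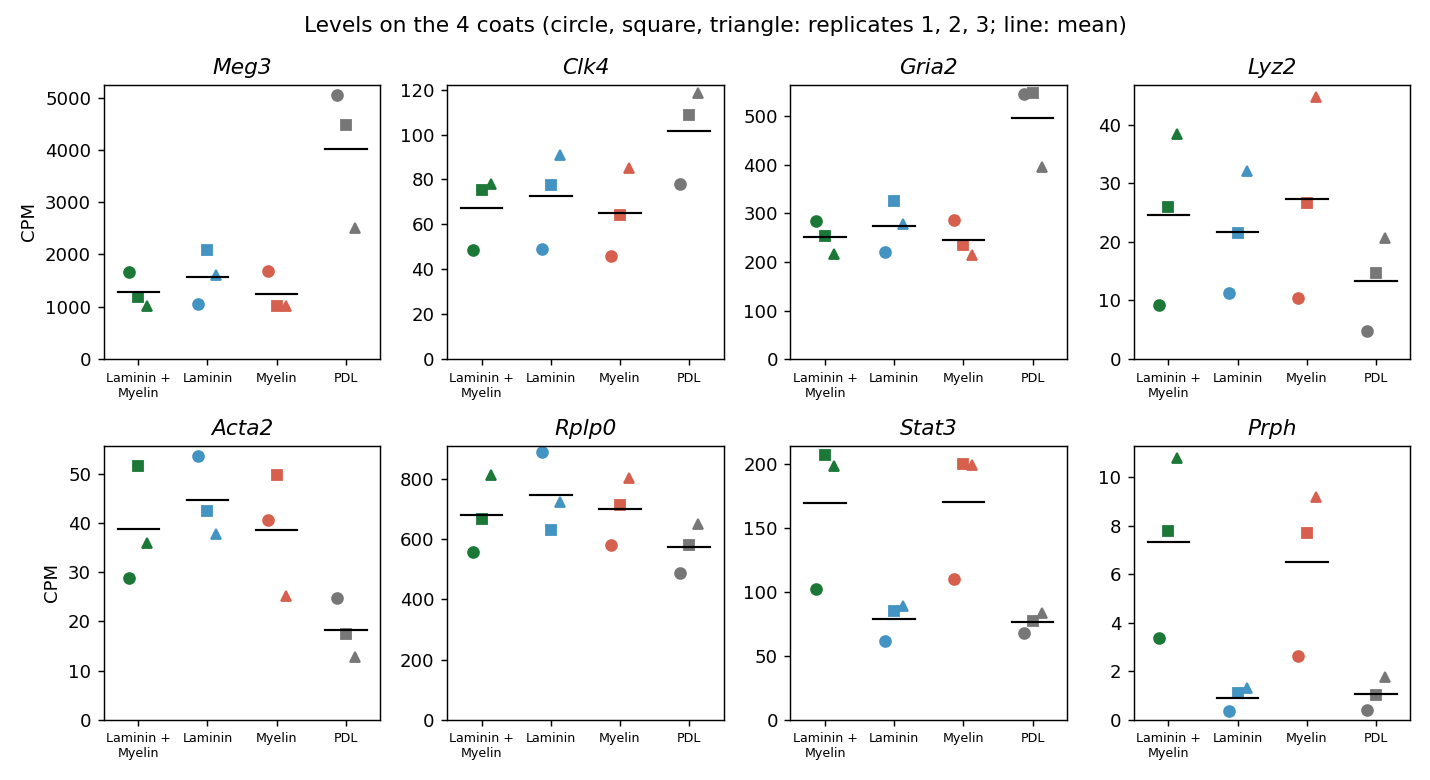
Levels in CPM (y axis, from 0) of 8 genes in the 3 libraries of each coat (x axis), with the mean as a line. Meg3, Clk4 and Gria2 have their highest mean on PDL, Lyz2 and Acta2 their lowest, and Stat3 and Prph are high on both coats with myelin; for Prph the means are 7.305 CPM on Laminin + Myelin, 0.917 on Laminin, 6.50 on Myelin and 1.06 on PDL.

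Whether the coats add up was also read from the genes that each coat changed alone. Laminin against PDL changed 1282 genes (8.15%), with 419 higher (2.66%) and 863 lower (5.48%), whereas laminin added to myelin changed 0 (0%), with 155 (0.985%) at an unadjusted p under 0.05; DESeq2 and limma-voom called 0 and 0. These contrasts share no library. The 419 genes that laminin raised on PDL had a median change of 0.34 log2 there and 0.01 log2 with myelin already present, where 236 (56.3%) kept the sign, against 53.3% of all genes tested. The 863 genes that it lowered had a median of -0.52 on PDL and 0.01 with myelin present, where 329 (38.1%) kept the sign, against 46.7% of all genes. The median on PDL is that of the contrast in which the genes were picked, so it is given as a description.

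Myelin against PDL changed 2268 genes (14.4%), with 687 higher (4.37%) and 1581 lower (10.0%), and myelin added to laminin changed 16 (0.102%), with 15 higher (0.0953%) and 1 lower (0.00635%). The 687 raised genes had a median of 0.32 log2 on PDL and 0.10 on laminin, where 576 (83.8%) kept the sign, against 45.6% of all genes. The 1581 lowered genes had a median of -0.59 on PDL and -0.09 on laminin, where 1214 (76.8%) kept the sign, against 54.4% of all genes. On laminin, 14 of the raised and 1 of the lowered genes passed the threshold again, and none did so with the opposite sign. Without Laminin replicate 1, 186 genes (1.16%) changed with myelin on laminin, with 104 higher (0.650%) and 82 lower (0.513%). Myelin on PDL then changed 5210 genes (32.6%), with 2603 higher (16.3%) and 2607 lower (16.3%). Laminin replicate 1 is in neither group of that contrast. Without it the fitted spread between libraries (biological coefficient of variation) was 0.061, against 0.090 with it. For Gria2 the myelin change on PDL was -1.01 log2 in both fits, with an SE of 0.06 without that library and 0.14 with it. So the larger count is not by itself a larger myelin change. In the fit without it the medians were 0.23 log2 on PDL and 0.10 on laminin for the raised genes, and -0.48 on PDL and -0.18 on laminin for the lowered genes. The size of these counts rests on that library, on the replicate block and on single PDL and Myelin libraries. Without the block, myelin on laminin changed 3 genes, myelin on PDL 360 and laminin on PDL 0. Myelin on PDL changed 160 genes without Myelin replicate 2 and 751 without Myelin replicate 3, and 682 and 286 without PDL replicate 1 and 2. Laminin on PDL changed 394 genes without Myelin replicate 3, and 0 without PDL replicate 1 or without PDL replicate 2, and either single coat changed 0 with the share of counts outside genes as a covariate.

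**Figure D3:**
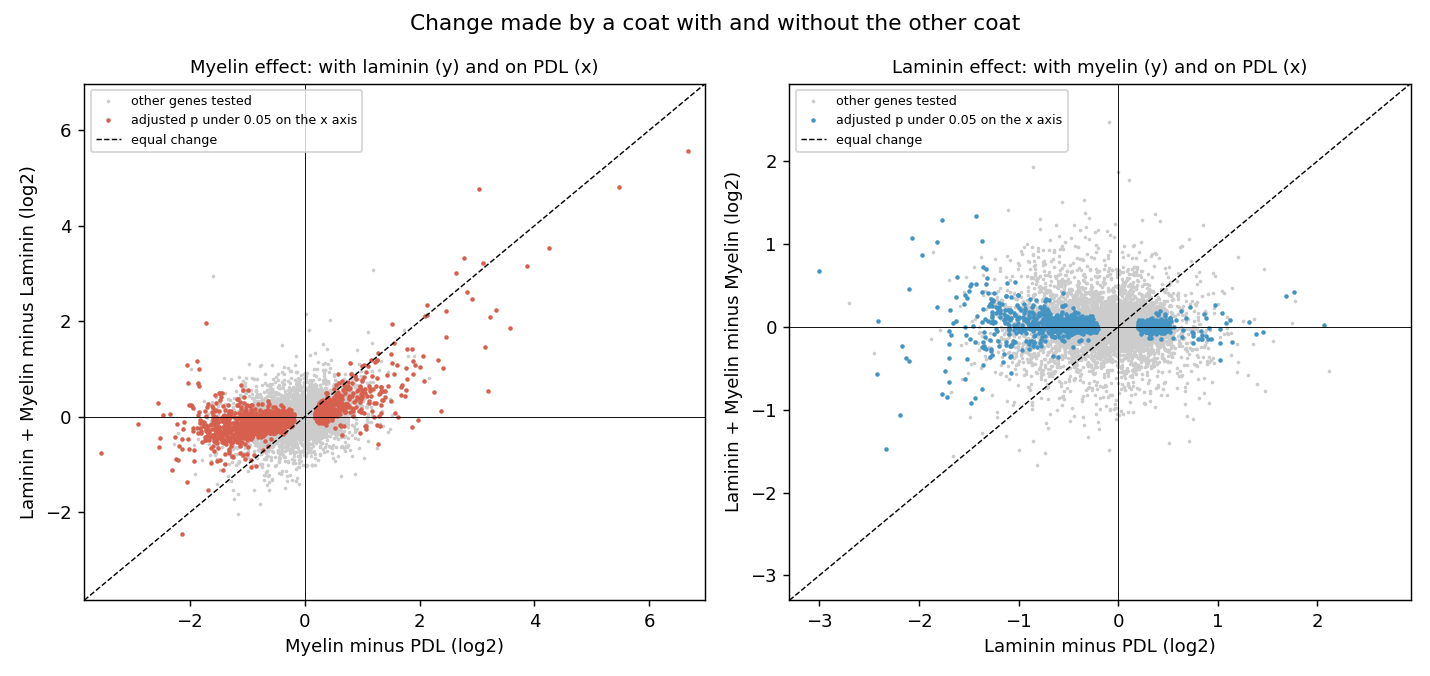
Each point is a gene; the x axis is the log2 change that myelin (left) or laminin (right) made on PDL, and the y axis the change by the same coat when the other was present. On the y axis the coloured genes have medians of 0.10 (raised) and -0.09 (lowered) on the left, between 0 and the dashed line of equal change, and of 0.01 for both directions on the right.

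The 16 genes that myelin changed on laminin were chosen after their values were seen, and 15 of them also changed with myelin on PDL. Prph, which encodes the neuronal intermediate filament peripherin, stood at 3.38, 7.76 and 10.8 CPM on Laminin + Myelin, against 0.347, 1.11 and 1.29 CPM on Laminin. On the coats without laminin it stood at 2.64, 7.69 and 9.18 CPM on Myelin, against 0.391, 1.02 and 1.76 CPM on PDL, and neither pair overlapped. Myelin raised it by 3.02 ± 0.16 log2 on laminin (adjusted p = 1.68e-06) and by 2.63 ± 0.16 on PDL (adjusted p = 5.08e-06), with an interaction of 0.38 ± 0.23 (adjusted p = 0.388). Stat3, the transcription factor downstream of IL-6 family cytokines, stood at 102, 207 and 199 CPM on Laminin + Myelin, against 61.8, 85.4 and 88.7 CPM on Laminin, and at 110.4, 200.3 and 199.7 CPM on Myelin, against 68.0, 77.2 and 83.4 CPM on PDL. Its change was 1.06 ± 0.13 on laminin (adjusted p = 0.00443) and 1.10 ± 0.13 on PDL (adjusted p = 0.00183), and the interaction was -0.04 ± 0.18 (adjusted p = 0.922). Il1b, the cytokine interleukin 1 beta, was the 1 gene that fell, at 0.0470, 0.262 and 0.264 CPM on Laminin + Myelin, against 0.370, 0.936 and 1.98 CPM on Laminin. Its change was -2.44 ± 0.34 on laminin (adjusted p = 0.0136) and -2.13 ± 0.37 on PDL (adjusted p = 0.00560).

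Transcripts of mature myelin and glia made up much of the rest. Mobp, which encodes a structural protein of myelin, stood at 7.40, 12.0 and 11.11 CPM on Laminin + Myelin, against 0.300, 0.202 and 0.138 CPM on Laminin, and at 8.22, 29.3 and 16.7 CPM on Myelin, against 0.104, 0.289 and 0.105 CPM on PDL. The libraries without myelin all lay far below those with it. Myelin basic protein transcript, Mbp, stood at 222, 397 and 373 CPM on Laminin + Myelin, against 31.9, 31.6 and 44.0 CPM on Laminin, and at 233, 748 and 453 CPM on Myelin, against 28.2, 27.5 and 35.9 CPM on PDL. The interactions were -1.11 ± 0.69 for Mobp (adjusted p = 0.404), -0.71 ± 0.35 for Mbp (0.324), -0.68 ± 0.39 for Plekhb1 (0.372), -0.71 ± 0.42 for the glial calcium-binding protein gene S100b (0.388) and 0.11 ± 0.55 for the astrocyte filament gene Gfap (0.934). Mal, a proteolipid of myelin at under 1 CPM in all 12 libraries, had an interaction of 1.73 ± 1.02 (adjusted p = 0.385). Wells of myelin without cells were collected by the study and are not analysed here, so RNA that came with the membranes and RNA of the cells cannot be told apart.

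Trem2, a receptor of microglia, stood at 0.681, 1.93 and 2.72 CPM on Laminin + Myelin, against 0.185, 0.430 and 0.484 CPM on Laminin, and at 0.790, 1.76 and 2.73 CPM on Myelin, against 0.0521, 0.158 and 0.315 CPM on PDL, with an interaction of -1.10 ± 0.38 (adjusted p = 0.245). Apoe, the lipid carrier apolipoprotein E, rose by 1.16 ± 0.16 log2 with myelin on laminin (adjusted p = 0.0136) and by 1.22 ± 0.16 on PDL (adjusted p = 0.00324), with an interaction of -0.06 ± 0.23. The last 5 genes had interactions of 0.13 ± 0.15 for Ildr2, -0.06 ± 0.26 for the protease Corin, 0.20 ± 0.47 for Nlrc5, an activator of MHC class I genes, -0.45 ± 0.45 for Pdlim2 and 1.89 ± 0.67 for Clca1. Clca1 alone of the 16 missed the threshold with myelin on PDL, where its change was 1.19 ± 0.44 (adjusted p = 0.0882), against 3.08 ± 0.45 on laminin (adjusted p = 0.0179). The interactions of all 16 genes missed the threshold.

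By function, 40 gene lists were described by their counts and medians beside all genes tested, of which 48.2% lay above 0 with a median of -0.01. No member of any list passed the threshold in the interaction. Among nuclear long noncoding RNAs, 20 of 25 members tested lay above 0, with a median of 0.39 log2, and 12 positive and 0 negative members had an unadjusted p under 0.05. Their most abundant members are Meg3, given above, and Malat1, a transcript of nuclear speckles, which stood at 1387, 1422 and 1148 CPM on Laminin + Myelin, 866, 1512 and 1650.0 CPM on Laminin, 1273, 911 and 1288 CPM on Myelin and 1998, 2315 and 2197 CPM on PDL. Its interaction was 0.90 ± 0.28 (adjusted p = 0.213), and -0.41 with the covariate. Among SR kinases and splicing regulators, 35 of 40 members tested lay above 0, with a median of 0.30 log2, with 22 positive and 0 negative members at an unadjusted p under 0.05. Within replicate numbers 1, 2 and 3 the median of this list was 0.49, 0.31 and 0.17, and it was 0.21 without Laminin replicate 1. The most abundant members differed: Srrm2, a scaffold of nuclear speckles, had an interaction of 0.65 ± 0.24 (adjusted p = 0.252; -0.52 with the covariate) and the RNA helicase gene Ddx5 had 0.08 ± 0.09 (adjusted p = 0.643). Each list had more members called lower than higher on single coats: of the splicing list, myelin lowered 24 and raised 0 on PDL, and laminin lowered 20 and raised 0. Of all genes tested, myelin lowered 10.0% and laminin 5.48%.

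Of the voltage-gated channel genes, 33 of 38 members tested lay above 0, with a median of 0.32 log2, and 15 positive and 0 negative members had an unadjusted p under 0.05. The median was 0.64 within replicate number 1, 0.12 within number 2 and 0.15 within number 3, and 0.16 without Laminin replicate 1. Their most abundant members are sodium channel subunits. Scn3a stood at 260.2, 229 and 188 CPM on Laminin + Myelin, 214, 270.2 and 216 CPM on Laminin, 252, 227 and 192 CPM on Myelin and 383, 347 and 279 CPM on PDL, with PDL above all other libraries and an interaction of 0.52 ± 0.13 (adjusted p = 0.184). Scn3b had an interaction of -0.04 ± 0.09 (adjusted p = 0.832). The summed level of the channel list was 2956, 2388 and 2264 CPM on Laminin + Myelin, 2460.0, 2812 and 2376 CPM on Laminin, 2901, 2506 and 2145 CPM on Myelin and 3733, 3253 and 2517 CPM on PDL. Within each number the PDL sum was highest, though in number 3 it lay within the range of the other coats over all numbers.

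The lists below 0 held markers of microglia and genes of protein synthesis, respiration and axon growth. Of the microglia and macrophage markers, 1 of 22 members tested lay above 0, with a median of -0.50 log2, and 10 negative and 0 positive members had an unadjusted p under 0.05. For these markers the median was -0.80, -0.33 and -0.38 within replicate numbers 1, 2 and 3, and -0.34 without Laminin replicate 1. Their summed level was 67.1, 192 and 308 CPM on Laminin + Myelin, 82.7, 156 and 246 CPM on Laminin, 78.9, 209 and 319.9 CPM on Myelin and 64.8, 133 and 192 CPM on PDL. The sums differed more between replicate numbers than between coats, and in number 1 the sum was lower on Laminin + Myelin than on Laminin. The other most abundant member besides Lyz2 was Laptm5, a lysosomal protein gene, with an interaction of -0.27 ± 0.17 (adjusted p = 0.398). Tyrobp, the signalling partner of Trem2, added after its values were seen, had an interaction of -0.76 ± 0.22 (adjusted p = 0.198).

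For cytosolic ribosomal proteins, 1 of 80 members tested lay above 0, with a median of -0.38 log2, and 13 negative and 0 positive members had an unadjusted p under 0.05, against 6.98% and 9.56% of all genes. The median was -0.82 within replicate number 1, -0.07 within number 2 and -0.20 within number 3, and -0.11 without Laminin replicate 1. Rplp0, a protein of the ribosomal stalk, stood at 558, 667 and 814 CPM on Laminin + Myelin, 891, 629 and 724 CPM on Laminin, 582, 715 and 803 CPM on Myelin and 488, 581 and 649 CPM on PDL. The coats overlapped, Laminin replicate 1 was the highest of all 12, and the interaction was -0.45 ± 0.20 (adjusted p = 0.295). Rpl4 had an interaction of -0.32 ± 0.18 (adjusted p = 0.362), and reads of both may be shared with pseudogenes. Among nuclear genes of oxidative phosphorylation, 2 of 79 members tested lay above 0, with a median of -0.37 log2, and -0.16 without Laminin replicate 1. Here 37 negative and 0 positive members had an unadjusted p under 0.05. The ATP synthase subunits Atp5b and Atp5a1 had interactions of -0.28 ± 0.12 (adjusted p = 0.280) and -0.28 ± 0.11 (adjusted p = 0.266). All 4 of these genes turned positive with the covariate.

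In the growth cone and axon growth list, 5 of 33 members tested lay above 0, with a median of -0.25 log2, and 15 negative and 0 positive members had an unadjusted p under 0.05. Without Laminin replicate 1 the median was -0.14. Gap43, a membrane protein of growth cones, stood at 562, 539 and 394 CPM on Laminin + Myelin, 644, 462 and 359 CPM on Laminin, 566, 535 and 412 CPM on Myelin and 430.4, 416 and 317 CPM on PDL. The ranges overlapped across the replicate numbers, and within each number PDL was lowest. Each coat alone raised it, by 0.38 ± 0.09 log2 for myelin (adjusted p = 0.0156) and 0.31 ± 0.09 for laminin (adjusted p = 0.0477), whereas myelin on laminin gave 0.05 ± 0.09 (adjusted p = 0.899). The interaction was -0.33 ± 0.12 (adjusted p = 0.257). Without Laminin replicate 1 the laminin change was 0.17 ± 0.05 (adjusted p = 0.0727), which misses the threshold, and the interaction -0.19 ± 0.07. With the share of counts outside genes as a covariate the interaction was 0.11. The tubulin gene Tuba1a had -0.37 ± 0.14 (adjusted p = 0.259) and Dpysl3, a collapsin response mediator, -0.12 ± 0.09 (adjusted p = 0.497).

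General neuronal genes had a median interaction of -0.11, with 5 of 22 above 0. Of these members, 7 negative and 0 positive had an unadjusted p under 0.05. Without Laminin replicate 1 the median was -0.12, with 1 above 0. The most abundant were Dcx, a microtubule protein of young neurons, at 0.03 ± 0.11 and Map2, a dendritic microtubule protein, at 0.02 ± 0.10. The neuronal tubulin gene Tubb3 had -0.26 ± 0.11 (adjusted p = 0.277), and Negr1, a neuronal adhesion protein gene, -0.12 ± 0.09 (adjusted p = 0.488). Integrins and laminin receptors lay near all genes, with 14 of 26 above 0, a median of 0.02, and 0 members at an unadjusted p under 0.05. Their most abundant members, Rpsa, which encodes a ribosomal protein also known as a laminin receptor, and the dystroglycan gene Dag1, had -0.36 ± 0.19 (adjusted p = 0.340) and -0.14 ± 0.09 (adjusted p = 0.414). Mature myelin genes had 10 of 24 members above 0 and a median of -0.09, and astroglial genes 7 of 21 and -0.09. Myelin raised 4 members of the mature myelin list on laminin, against 0.0953% of all genes, and 11 on PDL, against 4.37%, where it lowered 1; the most abundant besides Mbp was Nfasc, a cell adhesion protein, at 0.29 ± 0.17. Slc1a2 and Glul, for glutamate uptake and glutamine synthesis, led the astroglial list at 0.03 ± 0.12 and -0.30 ± 0.10.

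Cell cycle genes had 27 of 36 members above 0 and a median of 0.16, which was -0.17, 0.58 and 0.16 within replicate numbers 1, 2 and 3, and 0.33 with 35 above 0 without Laminin replicate 1. Mki67, a protein of dividing nuclei, stood at 22.4, 30.2 and 51.0 CPM on Laminin + Myelin, 20.9, 23.1 and 31.6 CPM on Laminin, 26.5, 24.7 and 48.1 CPM on Myelin and 36.6, 30.8 and 50.5 CPM on PDL. The coats overlapped, and the interaction was 0.69 ± 0.18 (adjusted p = 0.185). The replication genes Mcm7 and Rrm1, the most abundant of the list, had -0.01 ± 0.11 and -0.04 ± 0.09, and the progenitor factor gene Sox2 had -0.03 ± 0.13 (adjusted p = 0.929).

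**Figure D4:**
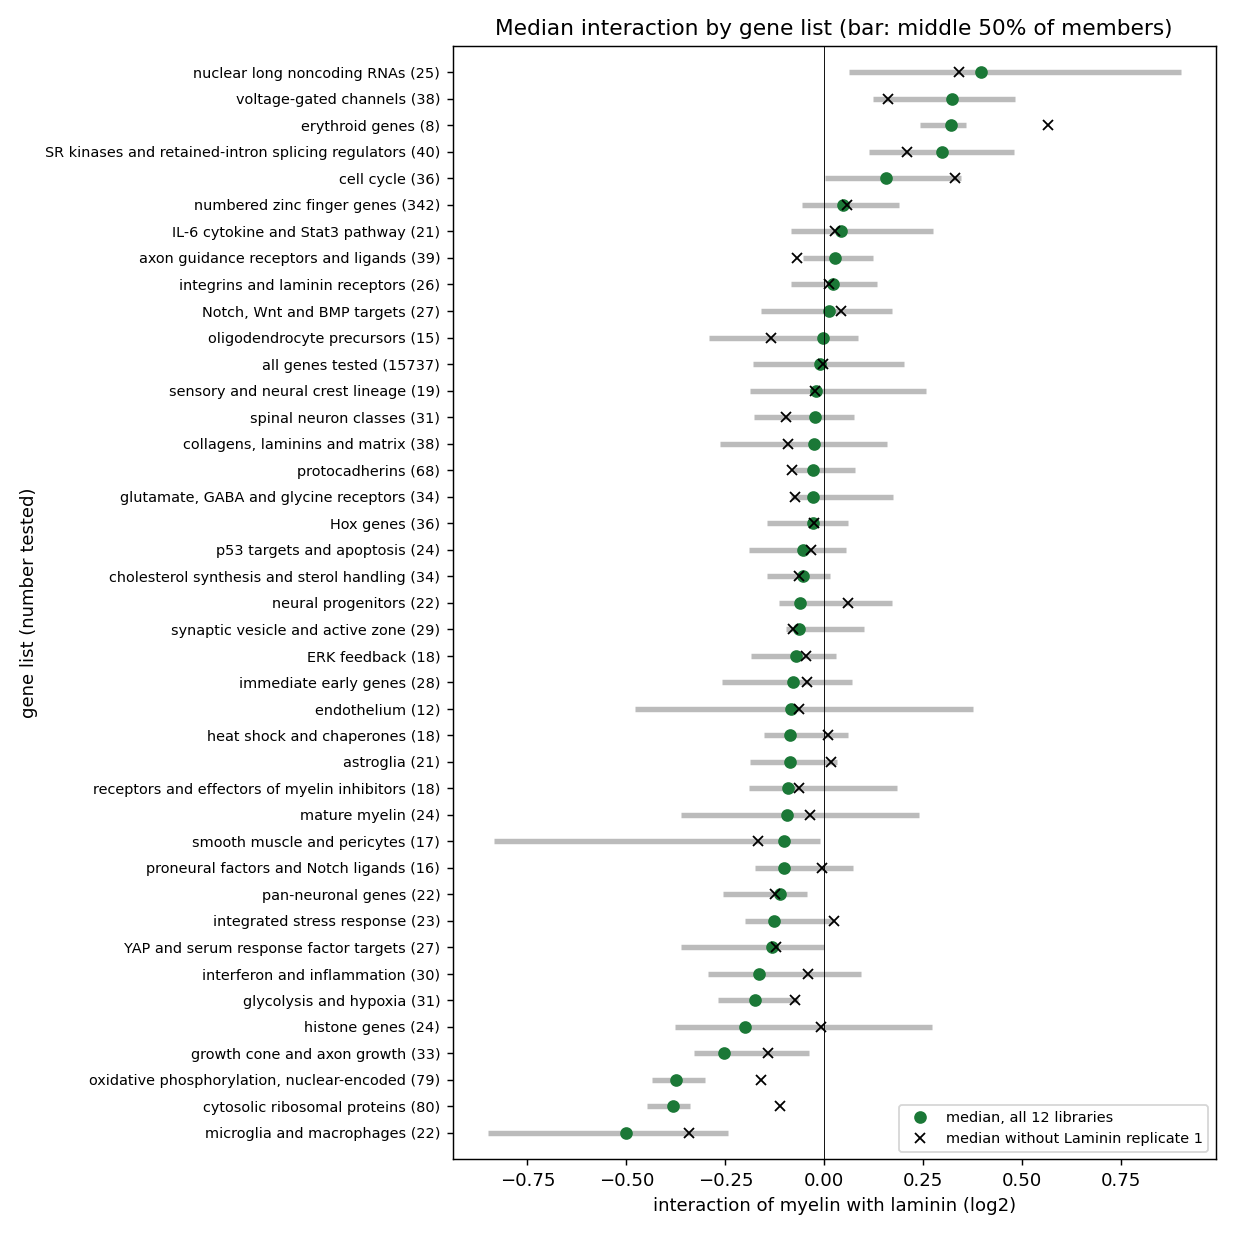
Median log2 interaction (x axis) of each of 40 gene lists and of all genes tested (y axis, with the number tested), with a bar over the middle 50% of members and a cross for the median without Laminin replicate 1. Nuclear long noncoding RNAs have the highest median at 0.39 and microglia and macrophages the lowest at -0.50. The crosses of ribosomal protein, oxidative phosphorylation and microglial genes lie nearer 0, at -0.11, -0.16 and -0.34, as do those of several other lists. That of cell cycle genes lies further from 0, at 0.33.

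Without Laminin replicate 1, 83 of 15990 genes passed the threshold (0.519%), of which 82 were positive (0.513%) and 1, Lyz2, was negative (0.00625%). The 8 splicing regulators and 2 channel genes among them came from lists of 40 and 38 tested. Except for Kif15, each of the 83 had an interaction smaller in size than in the fit with all libraries. For Gria2 it was 0.65 ± 0.09 log2 without that library and 0.87 ± 0.20 with it, and for Kif15 0.77 ± 0.16 and 0.76 ± 0.16. The SE was smaller without that library for most of the 83. So passing the threshold here is not by itself a larger interaction. Among the 83, the 12 largest positive interactions were taken at a mean of at least 1 CPM and one sign in replicate numbers 2 and 3. They ranged from 0.94 ± 0.19 log2 for A330076H08Rik to 1.58 ± 0.27 for 1700028K03Rik. The others were Gm2011, H2-M5, Sycp1, E330033B04Rik, Pram1, Cdr1, A930013F10Rik, Lekr1, Spaca6 and Ccdc176. H2-M5, a non-classical MHC class I gene, stood at 3.29, 3.14 and 3.33 CPM on Laminin + Myelin, 1.41, 3.54 and 3.66 CPM on Laminin, 2.79, 2.11 and 2.34 CPM on Myelin and 8.23, 8.57 and 5.22 CPM on PDL, with PDL above all other libraries. Its interaction was 1.37 ± 0.25 (adjusted p = 0.0335) without that library and 1.78 ± 0.42 (adjusted p = 0.167) with it. With the share of counts outside genes as a covariate, all libraries kept, the sign turned for 5 of these 12 genes. The values were -0.36 ± 0.40 for H2-M5, -0.022 ± 0.29 for Cdr1, -0.44 ± 0.23 for A930013F10Rik, -0.61 ± 0.30 for Spaca6 and -0.15 ± 0.28 for A330076H08Rik (SE). None of them passed the threshold in that fit. Cdr1 (chrX:61184005-61185558) lies inside C230004F18Rik on the other strand. Since the strand setting of the counts is not given in the sources used here, their reads cannot be told apart. Lyz2 had -0.77 ± 0.11 (adjusted p = 0.0158).

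The interaction also varied with the length of transcripts, in a split added after the data were seen. Of the genes tested, 95.2% matched a GENCODE M21 transcript. The fifth with the shortest transcripts had a median of -0.18 log2 and the fifth with the longest 0.11. Within replicate number 1 these medians were -0.42 and 0.29, within number 2 0.02 and -0.01, and within number 3 -0.10 and 0.05. Without Laminin replicate 1 they were -0.06 and 0.05. The fifth of genes with the lowest mean level, 0.118 to 1.73 CPM, had a median of 0.21, and the fifth with the highest -0.04.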

How the data were processed

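Whole-number counts of paired-end reads (TruSeq RNA libraries, per the labels) were taken from the table the authors deposited, which lists 21033 entries. CASAVA 1.8.2, edgeR with no version, and GRCm38 and mm10 stand in the submitters' processing notes. For the aligner, the counter, the annotation and the strand, the entry is: not given in the sources used here. The 3 entries that name no gene (outside genes, 8.46% to 19.4% of counts; several places, 11.5% to 13.6%; ambiguous, 0.579% to 0.717%) stayed out of library sizes and tests. Of 27 symbols turned into dates, 25 were restored. The authors' normalized values, fold changes and p-values were not used. Coordinates and transcript lengths come from GENCODE M21 (GRCm38), and promoters from RefSeq.

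Counts were fitted in edgeR 4.0.16 (R 4.3.3, limma 3.58.1) with TMM factors, its default expression filter and the robust quasi-likelihood test, with a mean per coat and the replicate number as a block. A Benjamini-Hochberg adjusted p under 0.05 over all 15737 genes tested was the threshold, and every adjusted p in the text comes from this test unless another tool is named. Standard errors were derived from the fold change and its F statistic. The block follows the definition of the contrast. The check of the pairing gave correlations of 0.218 to 0.83 between deviations of 18 same-numbered pairs, against -0.77 to 0.243 for 36 others. No libraries agreed within sampling noise (chi-square per degree of freedom 14.8 to 58.6). Alternatives were DESeq2 1.42.0, limma-voom, other scalings, other filters, no block, the CPM scale, the share of counts outside genes as covariate, and leaving out libraries. The scripts were tested on simulated data.

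The contrast, its members and the 40 gene lists were chosen with earlier results of these data known. Named genes were, in each direction, the 6 with the smallest p among those with a mean of at least 1 CPM and one sign in all 3 replicate numbers, the 12 largest interactions called without Laminin replicate 1, and the most abundant members of each list described. Other named genes (Clk1, Tyrobp, Prph, Apoe and the rest of the 16 genes that myelin changed on laminin) were chosen after their values were seen. So were the motifs, of which the shorter PU.1 core was tried after the full site was not found at Lyz2, and the splits by length and level. Lists that the text does not describe appear in the plot of list medians. The result for 1 gene that this rule names is not reported here.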

Additional observations from a re-analysis of the deposited data

Results flagged for a closer look

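Among the 79 genes checked by name, 4 had myelin effects of opposite sign on laminin and on PDL in all 3 replicate numbers, as had 556 of all 15737 genes tested (3.53%). Some of the 79, such as Nptx2 and Slc1a6, were named for a small p in the interaction, and Tyrobp after its values were seen. The 4 of 79 therefore cannot be weighed against the share of all genes. The test of the difference, the interaction, did not pass the threshold for any of the 4 in edgeR's quasi-likelihood test. The pentraxin gene Nptx2 changed by -0.08 log2 with myelin on laminin and by 0.33 on PDL, an interaction of -0.41 (adjusted p = 0.167). The glutamate transporter gene Slc1a6 changed by -0.44 on laminin and by 0.51 on PDL, an interaction of -0.95 (adjusted p = 0.167). The proliferation marker Mki67 changed by 0.40 on laminin and by -0.28 on PDL, an interaction of 0.69 (adjusted p = 0.185). Tyrobp, a microglial adaptor gene, changed by -0.24 on laminin and by 0.52 on PDL, an interaction of -0.76 (adjusted p = 0.198).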

How the results depend on the processing

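The interaction called 0 genes in 11 of 12 fits that each left out 1 library, 83 without Laminin replicate 1 and 242 with DESeq2; leaving out libraries gave 0 to 83. Without the replicate block, myelin on laminin had 3 calls, myelin on PDL 360 and laminin on PDL 0. DESeq2 gave 66 calls for myelin on laminin and 2384 for laminin on PDL, and a minimum mean of 5 CPM gave 5 for myelin on laminin. With the outside-gene share as covariate the counts were 42 for myelin on laminin, 0 for myelin on PDL and 0 for laminin on PDL. Leaving out 1 library gave 6 to 186 calls for myelin on laminin, 160 to 5210 for myelin on PDL and 0 to 2481 for laminin on PDL, where 0 was reached without PDL replicate 1 or 2; myelin on PDL was lowest without Myelin replicate 2. Without all 4 libraries of number 1, 2 or 3, the counts were 198, 5 and 5 for myelin on laminin, 2278, 9 and 322 for myelin on PDL and 187, 0 and 0 for laminin on PDL. The next medians are over the genes called in each fit, so they are not of the same genes. The 23 genes raised by myelin on PDL without the block had a median of 0.59 log2 on laminin. Genes raised by myelin on laminin had a median on PDL of 2.92 (15 genes), 5.60 without the block (3 genes) and 0.71 without Laminin replicate 1 (104 genes). In that last fit the 82 lowered genes had a median of -0.83. With the covariate the sign turned for 34 of the genes named: Mobp (1.08), Plekhb1 (0.86), S100b (0.31), Meg3 (-0.66), Gria2 (-0.14), Gap43 (0.11), Stat3 (0.28), H2-M5 (-0.36), Cdr1 (-0.022), A930013F10Rik (-0.44), Spaca6 (-0.61), A330076H08Rik (-0.15), Mbp (0.48), Glul (0.059), Dcx (-0.054), Scn3a (-0.047), Tuba1a (0.22), Rpsa (0.51), Malat1 (-0.41), Srrm2 (-0.52), Rplp0 (0.47), Rpl4 (0.53), Atp5b (0.16), Atp5a1 (0.15), Actb (0.023), Nfasc (-0.37), Slc1a2 (-0.21), Mcm7 (0.31), Rrm1 (0.088), Vtn (0.38), Pkm (0.059), Gapdh (0.24), Pdlim2 (0.65), Mal (-1.37). In that fit the interaction called 0 genes, so none of these values passed the threshold. Several were smaller in size than their SE, such as those of Gria2 (SE 0.16), Gap43 (SE 0.17), Cdr1 (SE 0.29), Actb (SE 0.17) and Mal (SE 2.05). With a minimum mean of 5 CPM the sign turned for Sox2 (0.0028) and Mcm7 (0.016). With upper-quartile factors it turned for Sox2 (0.0036) and Mcm7 (0.017). With limma-voom it turned for Gfap (-0.029). On the CPM scale it turned for Gfap (-0.68). When 1 library was left out it turned for Apoe (-0.25 to 0.15), Corin (-0.23 to 0.21), Dcx (-0.034 to 0.11), Gfap (-0.54 to 0.42), Il1b (-0.81 to 0.083), Map2 (-0.016 to 0.091), Mcm7 (-0.091 to 0.091), Nlrc5 (-0.070 to 0.48), Rrm1 (-0.071 to 0.011), Scn3b (-0.085 to 0.0090), Slc1a2 (-0.069 to 0.11), Sox2 (-0.087 to 0.064), Stat3 (-0.24 to 0.096), Vtn (-0.18 to 0.068). Without a whole replicate number it turned for Apoe (0.27), Corin (0.37), Dcx (-0.091), Gfap (-0.60), Hbb-y (-0.15), Il1b (0.41), Mal (-0.13), Map2 (-0.045), Mcm7 (0.091), Pdlim2 (0.054), Rrm1 (0.010), Slc1a2 (-0.14), Sox2 (0.077 and 0.016), Vtn (0.14); the cause was not tested. No sign turned with RLE factors or with no filter.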

Other observations

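Glycolytic genes had 3 of 31 members above 0 in the interaction and a median of -0.17 log2 (-0.07 without Laminin replicate 1). Pkm and Gapdh, enzymes of glycolysis, had -0.17 ± 0.09 and -0.25 ± 0.13. Smooth muscle and pericyte genes had 4 of 17 above 0 and a median of -0.10 (-0.17 with 7 above 0 without Laminin replicate 1), with Vtn, the matrix protein vitronectin, at -0.05 ± 0.15. Genes of the IL-6 and Stat3 pathway had 12 of 21 above 0 and a median of 0.04, and the kinase gene Jak1 had -0.10 ± 0.08. The cytoskeletal actin genes Actb and Actg1 had -0.24 ± 0.10 and -0.18 ± 0.10. All 6 missed the threshold.

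Erythroid genes had 8 of 8 members above 0 and a median of 0.32, but -0.50 within replicate number 1, 0.92 within number 2 and 0.32 within number 3, and 0.57 without Laminin replicate 1. The embryonic globin genes Hbb-y and Hba-x had 0.31 ± 0.32 (adjusted p = 0.608) and 0.37 ± 0.27 (adjusted p = 0.472).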
